A study of Mus musculus with 12 samples.

Results

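The receptors for interleukin 2 (IL-2) and interleukin 7 (IL-7), the 2 STAT5 genes and the feedback genes that STAT5 induces were followed across 5 sorted groups of mouse CD4 T cells. The genes were chosen by name, and every probe set that the array's annotation gave to them alone was taken, which gave 18 of the 45101 probe sets in the value table. They belong to 8 of the 9 genes, among 18194 genes named on the array. No probe set used here was annotated to Il2rg, the common gamma chain, which is therefore not analysed. Of the 18 probe sets, 14 reached a log2 signal of 5 on at least 2 of the 12 arrays and were tested among 17901 probe sets that did so. The tested ones are 2 each for Il2ra, Il2rb, Il7r and Stat5b, 3 for Socs2 and 1 each for Stat5a, Cish and Socs1.

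The cells came from S1pr2V/+ mice, in which Venus fluorescence reports S1pr2, a receptor for sphingosine-1-phosphate, taken 10 days after subcutaneous immunization with CGG in CFA. From lymph nodes, 4 groups of CD4+ CD44-high Dump- cells were sorted. Follicular helper T (Tfh) cells were CXCR5+ and PD1-high, and were divided into Venus-high (3 arrays) and Venus-low (3 arrays). T helper (Th) cells were sorted as CXCR5+ PD1-intermediate (2 arrays) and as CXCR5-low PD1-low (2 arrays). Naive CD4 T cells (CD4+ CD44-low CD62L-high Dump-, 2 arrays) came from spleen. The sample labels give their donors as immunized S1pr2V/+ mice, while the design text leaves room for control mice. Each array held RNA of cells pooled from 4 to 6 mice in the lymph node groups and from 2 mice in the naive group. Strain, age and sex of the mice were not given in the sources used here, and nothing says that the replicates were separate experiments, so p-values measure the spread between these arrays.

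IL-2 binds a receptor built from Il2ra (CD25), which adds affinity, Il2rb (CD122) and the common gamma chain Il2rg, while the IL-7 receptor pairs Il7r (CD127) with the same gamma chain. Both receptors signal through Janus kinases that phosphorylate STAT5, and STAT5 then switches on Cish, Socs1 and Socs2, whose proteins dampen cytokine receptor signalling. In CD4 T cells IL-7 maintains naive and memory cells, IL-2 maintains regulatory T cells, and IL-2 acting through STAT5 opposes the formation of Tfh cells.

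The value distributions separated the arrays into 3 sets that the labels do not name. Set 1 held Venus-high, Venus-low and naive replicate 1, with 75% quantiles of 8.50 to 8.55 log2. Set 2 held Venus-high, Venus-low and naive replicate 2 with PD1-low replicate 1, at 8.68 to 8.76. Set 3 held Venus-high and Venus-low replicate 3, both PD1-intermediate arrays and PD1-low replicate 2, at 9.39 to 9.42. The sets also shifted single probe sets. In a fit of group and set, 508, 3283 and 234 probe sets of the whole table were displaced in set 1, 2 and 3, by over 3 log2 against each other set in 1 direction. The counts of calls in each comparison are therefore given without and with the array set as a term. Values with the term or within a set are printed beside part of the differences. A difference with no fit named comes from the fit without the term. Each difference is on the log2 scale, the first-named group minus the other, with its standard error (SE). A group whose arrays were all under log2 5 was set to that level for a fold, which is then a lower bound. The values are signals of pools of cells, in which fewer cells expressing a gene and less RNA per cell cannot be told apart.

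Il7r and Cish, a STAT5-induced feedback gene, fell in Venus-high Tfh relative to naive cells, and Il2rb rose. Il2ra was below log2 5 on every Venus-high array and highest in PD1-low Th, and the STAT5 genes showed no called difference. Between Venus-high and Venus-low Tfh, limma called 2 of the 14 tested member probe sets at an adjusted p under 0.05, both of them Il7r and both lower in Venus-high. In that comparison 0.609% of all tested probe sets were called. With the array set term the members called were 4, all lower in Venus-high (both Il7r probe sets, Cish and Il2ra), and the share over all probe sets was 11.6%. Between Venus-low Tfh and PD1-intermediate Th limma called 0 members, with 2 at an unadjusted p under 0.05, where the share over all was 0.268%, and 0 with the set term (4 unadjusted), where it was 3.05%.

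Between PD1-intermediate and PD1-low Th limma called 0 members, with 5 at an unadjusted p under 0.05 and 2.49% of all probe sets called. With the set term it called 3, each lower in PD1-intermediate (Cish and 1 probe set each of Il2ra and Socs2), beside 9.07% of all. Between PD1-low Th and naive cells 1 member, Il2rb, was called higher in PD1-low in both fits, and the shares over all probe sets were 0.0335% and 0.369%. Between Venus-high Tfh and naive cells the fit called 4 members, 1 higher and 3 lower in Venus-high, beside 9.52% of all. With the set term it called 6 members, 2 higher and 4 lower, beside 34.3% of all.

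The median difference of the 14 member probe sets between Venus-high and Venus-low Tfh was -0.35, against 0.02 over all tested probe sets. It was -0.76 against -0.44 for Venus-low over PD1-intermediate, -1.54 against 0.27 for PD1-intermediate over PD1-low, 1.47 against 0.33 for PD1-low over naive and -0.44 against 0.18 for Venus-high over naive. These medians describe the probe sets that passed the filter on low values, and a probe set that passed it through its high group had to differ.

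**Figure D1:**
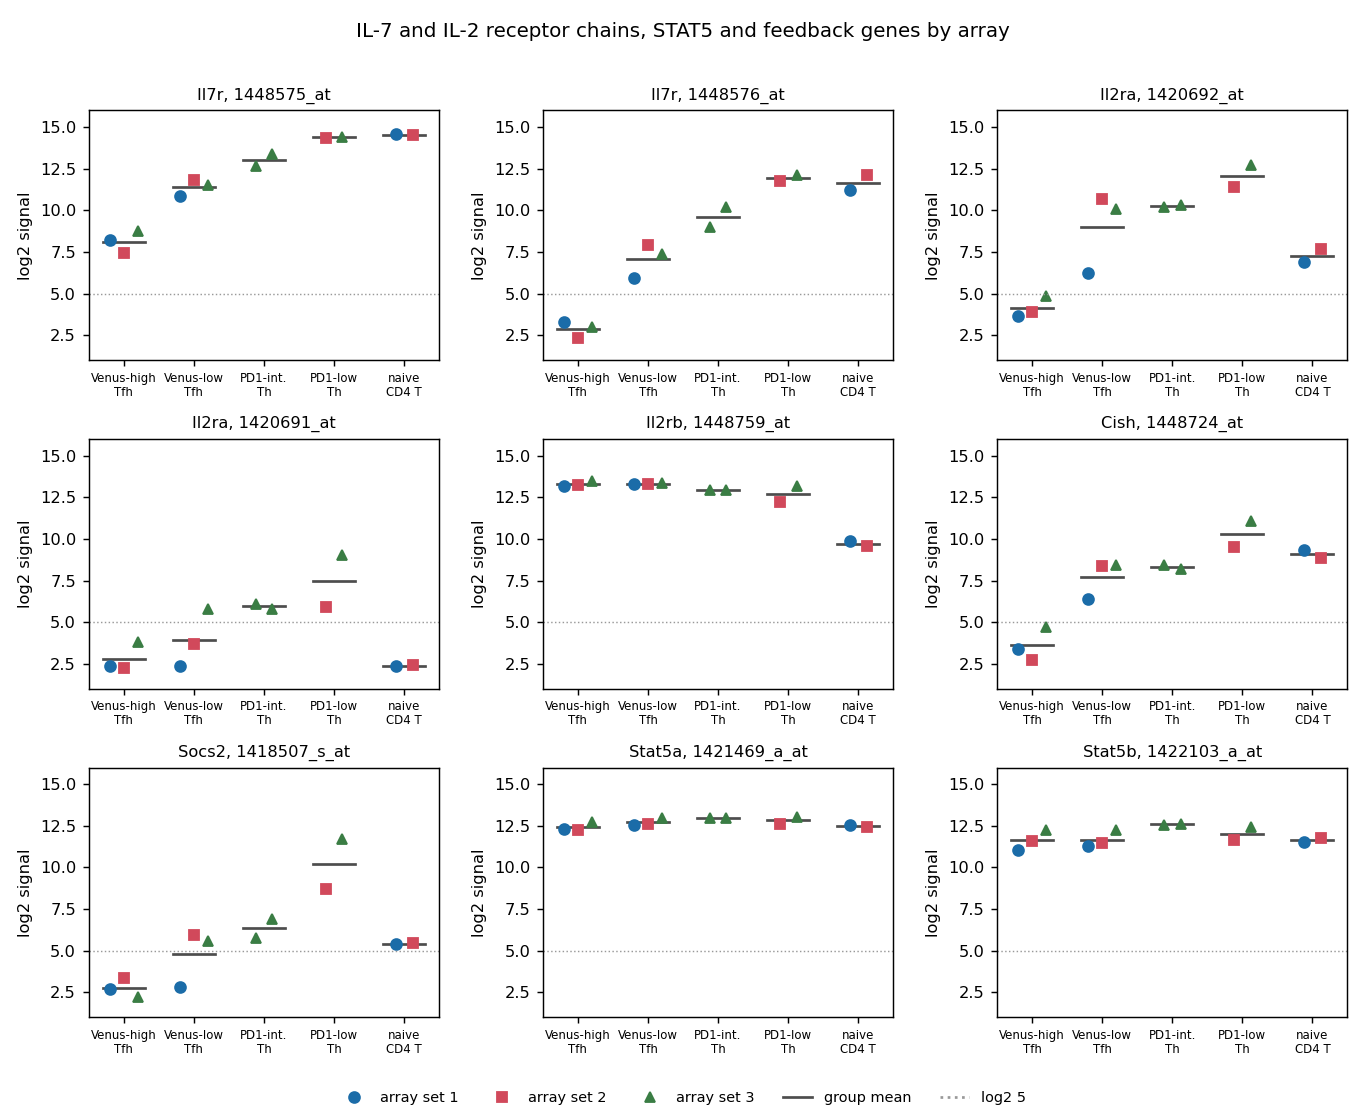
Log2 signal of 9 member probe sets on every array, with the 5 groups on the horizontal axis, a line at each group mean and the marker showing the array set. Il7r is lowest on the 3 Venus-high arrays (7.42 to 8.73 for 1448575_at) and highest on the PD1-low and naive arrays (14.35 to 14.56), Il2ra peaks in PD1-low, Il2rb is lowest in naive cells, and Stat5a stays between 12.26 and 13.04.

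Il7r lies on chromosome 15 (9506159 to 9529941, RefSeq, GRCm38.p6; the expression values carry no genome build) and encodes the alpha chain of the IL-7 receptor. Probe set 1448575_at read 8.23, 7.42 and 8.73 log2 in Venus-high Tfh, 10.86, 11.82 and 11.52 in Venus-low Tfh, 12.68 and 13.39 in PD1-intermediate Th, 14.35 and 14.42 in PD1-low Th, and 14.56 and 14.50 in naive cells. The Venus-high, Venus-low, PD1-intermediate and PD1-low arrays formed a rising order without overlap between these groups, and the PD1-low and naive arrays all lay between 14.35 and 14.56. The other probe set, 1448576_at, read 3.31, 2.34 and 2.97 in Venus-high, 5.94, 7.95 and 7.40 in Venus-low, 9.005 and 10.17 in PD1-intermediate, 11.76 and 12.15 in PD1-low, and 11.20 and 12.12 in naive cells. It showed the same order of the first 4 groups, and its PD1-low and naive values overlapped.

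Il7r fell by 3.27 ± 0.39 in Venus-high relative to Venus-low Tfh (SE, n = 3 and 3, limma adjusted p = 0.0133), which is 9.68-fold. The second probe set fell by 4.22 ± 0.57 (adjusted p = 0.0225), at least 4.27-fold, since its Venus-high values were all below 5. Within array sets 1, 2 and 3 the difference was -2.63, -4.40 and -2.79 for 1448575_at and -2.63, -5.60 and -4.42 for 1448576_at. With the set term the adjusted p was 0.00483 and 0.00660. Of 22 alternatives for 1448575_at, with adjusted p from 0.000692 to 0.505, the call was lost in 4. It reached 0.0777 when Venus-low replicate 2 was left out, 0.0581 when Venus-low replicate 3 was, 0.108 without array set 1 and 0.505 without array set 2. The call for 1448576_at was lost when values under 5 were set to 5 (adjusted p = 0.185), and on leaving out any of the 3 Venus-high arrays or Venus-low replicate 2 or 3 (adjusted p from 0.0527 to 0.0952). It was also lost without array set 1 (0.0537) and array set 2 (0.545), and kept in 13 of 21 alternatives, the lowest adjusted p being 0.00122.

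Against naive cells Il7r fell by 6.40 ± 0.44 in Venus-high Tfh (SE, n = 3 and 2, adjusted p = 5.1e-05), which is 84.6-fold. On the second probe set it fell by 8.78 ± 0.64 (adjusted p = 7.09e-05), at least 101-fold. The difference was -6.33 and -7.08 within sets 1 and 2 for the first probe set and -7.89 and -9.77 for the second. These calls held in every alternative run, 22 for the first and 21 for the second. The steps between the other neighbours did not pass the test. Venus-low minus PD1-intermediate was -1.64 ± 0.44 (n = 3 and 2, adjusted p = 0.299) and -2.50 ± 0.64 (adjusted p = 0.264), and within set 3 it was -1.52 and -2.19. PD1-intermediate minus PD1-low was -1.34 ± 0.48 (n = 2 and 2, adjusted p = 0.326) and -2.37 ± 0.70 (adjusted p = 0.184), and within set 3 it was -1.38 and -2.56. PD1-low minus naive was -0.15 with a 95% interval from -1.24 to 0.95 for the first probe set, and 0.30 with an interval from -1.30 to 1.90 for the second.

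Il2ra, on chromosome 2 (11642792 to 11693194), encodes CD25, the chain that marks activated and regulatory T cells. Probe set 1420692_at read 3.65, 3.90 and 4.83 log2 in Venus-high Tfh, 6.26, 10.69 and 10.08 in Venus-low Tfh, 10.23 and 10.30 in PD1-intermediate Th, 11.43 and 12.73 in PD1-low Th, and 6.87 and 7.67 in naive cells. All Venus-high values were below 5 and below every value of the other groups, PD1-low was highest, and Venus-low replicate 1 lay below the naive arrays while the other 2 Venus-low arrays lay above them. The weaker probe set, 1420691_at, read 2.34, 2.24 and 3.78 in Venus-high, 2.38, 3.70 and 5.77 in Venus-low, 6.11 and 5.78 in PD1-intermediate, 5.90 and 9.06 in PD1-low, and 2.38 and 2.40 in naive cells. On it Venus-high, naive and 2 of the 3 Venus-low arrays were below 5, so the probe sets do not give the same order for the low groups.

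For 1420692_at, Venus-high minus Venus-low was -4.88 ± 1.04 (SE, n = 3 and 3) and did not pass the test (limma adjusted p = 0.112), although the groups did not overlap. It was -2.61, -6.79 and -5.25 within sets 1, 2 and 3, and with the set term it passed (adjusted p = 0.00961) at an at least 16.1-fold lower level in Venus-high. It also passed without Venus-low replicate 1 (adjusted p = 0.00424), after quantile normalization of the 12 arrays (0.0301) and without array set 1 (0.0474). Against naive cells the Venus-high difference was -3.14 ± 1.16 (n = 3 and 2, adjusted p = 0.168), at least 4.82-fold by the group means. With the set term it was -3.66 ± 0.85 (adjusted p = 0.0154). PD1-low minus naive was 4.81 ± 1.28 (n = 2 and 2, adjusted p = 0.607) for 1420692_at and 5.09 ± 1.22 (adjusted p = 0.487) for 1420691_at. Both PD1-low arrays lay above both naive arrays on both probe sets, and within set 2 the differences were 3.76 and 3.50. PD1-intermediate minus PD1-low was -1.81 ± 1.28 (adjusted p = 0.859) for 1420692_at. For 1420691_at it was -1.54 ± 1.22 (adjusted p = 0.859) without and -2.69 ± 0.55 (adjusted p = 0.0273) with the set term. Without PD1-low replicate 2 that value was 0.04.

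Il2rb, on chromosome 15 (78479256 to 78511621), encodes the signalling chain shared by the IL-2 and IL-15 receptors. Probe set 1448759_at read 13.16, 13.26 and 13.50 log2 in Venus-high Tfh, 13.28, 13.28 and 13.38 in Venus-low Tfh, 12.92 and 12.95 in PD1-intermediate Th, 12.23 and 13.15 in PD1-low Th, and 9.86 and 9.58 in naive cells. The 10 arrays of CD44-high cells all lay above the naive arrays, and the Venus-high and Venus-low ranges overlapped. Il2rb rose in Venus-high Tfh relative to naive cells by 3.59 ± 0.29 (SE, n = 3 and 2, limma adjusted p = 0.000129), 12.05-fold, with 3.30 and 3.69 within sets 1 and 2, and this call held in all 22 alternatives. In PD1-low Th relative to naive cells it rose by 2.97 ± 0.32 (n = 2 and 2, adjusted p = 0.0360), 7.86-fold, with 2.65 within set 2 and an adjusted p of 0.00836 with the set term. That call was kept in 1 of the 12 fits that left out an array, the one without PD1-low replicate 1, and the adjusted p ran from 0.0154 to 0.177 over the 12. Over all 22 alternatives it was kept in 9. Between Venus-high and Venus-low Tfh the difference was -0.01 ± 0.26 (adjusted p = 1.00), and with the set term -0.01 with no call. Neither step between Venus-low, PD1-intermediate and PD1-low passed in either fit.

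The other Il2rb probe set, 1417546_at, was displaced in array set 1. It read 3.24, 8.94 and 9.70 in Venus-high Tfh, 4.00, 9.47 and 9.65 in Venus-low Tfh, 9.07 and 8.99 in PD1-intermediate Th, 8.18 and 9.40 in PD1-low Th, and 2.23 and 3.61 in naive cells. Outside set 1 the lymph node arrays lay between 8.18 and 9.70 and the naive array at 3.61, while the set 1 arrays of both Tfh groups lay at 3.24 and 4.00. The Venus-high minus naive difference was 4.37 ± 2.16 (adjusted p = 0.343), and with the set term 3.28 ± 0.89 (adjusted p = 0.0280), with 1.01 and 5.33 within sets 1 and 2.

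Stat5a and Stat5b, neighbours on chromosome 11, encode the transcription factors themselves. Stat5a (1421469_a_at) read 12.29, 12.26 and 12.72 log2 in Venus-high Tfh, 12.57, 12.63 and 12.96 in Venus-low Tfh, 12.96 and 12.96 in PD1-intermediate Th, 12.64 and 13.04 in PD1-low Th, and 12.55 and 12.41 in naive cells. The whole range over the 12 arrays was 12.26 to 13.04, and a second Stat5a probe set (1450259_a_at) stayed below 5 on every array and was not tested. Stat5b (1422103_a_at) read 11.07, 11.59 and 12.26 in Venus-high, 11.27, 11.44 and 12.27 in Venus-low, 12.57 and 12.61 in PD1-intermediate, 11.65 and 12.41 in PD1-low, and 11.51 and 11.77 in naive cells. Its highest values were in array set 3 in each group that had an array there. The weaker Stat5b probe set, 1422102_a_at, lay between 5.38 and 7.05 and moved with the array set in the opposite direction, with set 3 minus set 1 at -1.10, while it was 1.08 for 1422103_a_at.

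None of the 3 tested STAT5 probe sets was called in any of the 5 comparisons, without or with the set term. Venus-high minus Venus-low was -0.30 for Stat5a, with a 95% interval from -0.81 to 0.22 and, with the set term, from -0.50 to -0.09 (adjusted p = 0.0725). For Stat5b it was -0.02 with an interval from -0.91 to 0.88 (1422103_a_at), narrowed by the set term to -0.25 to 0.21, and 0.21 with an interval from -0.75 to 1.17 (1422102_a_at). For Venus-high minus naive cells Stat5a was -0.06 with an interval from -0.64 to 0.52, and Stat5b (1422103_a_at) was 0.01 with an interval from -0.99 to 1.01. Stat5b 1422102_a_at was 0.24 with an interval from -0.83 to 1.32. With the set term Stat5a was -0.19 with an interval from -0.43 to 0.04. The Stat5b probe sets then went opposite ways. Probe set 1422103_a_at was at -0.30 (-0.56 to -0.04, limma adjusted p = 0.0807) and 1422102_a_at at 0.57 (0.11 to 1.02, adjusted p = 0.0614).

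Cish, on chromosome 9 (107296659 to 107302784), encodes the first described member of the suppressor of cytokine signalling family and is used as a readout of STAT5 activity. Its probe set 1448724_at read 3.39, 2.72 and 4.72 log2 in Venus-high Tfh, 6.38, 8.35 and 8.42 in Venus-low Tfh, 8.42 and 8.17 in PD1-intermediate Th, 9.53 and 11.05 in PD1-low Th, and 9.36 and 8.87 in naive cells. All Venus-high arrays lay below 5 and below every other array, Venus-low and PD1-intermediate overlapped, and PD1-low lay above naive cells. Cish fell by 5.50 ± 0.79 in Venus-high Tfh relative to naive cells (SE, n = 3 and 2, limma adjusted p = 0.00263), at least 17.3-fold, with -5.97 and -6.14 within sets 1 and 2. That call was lost without array set 1 (adjusted p = 0.0507) and without array set 2 (adjusted p = 0.100) and kept in the other 20 alternatives.

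Between Venus-high and Venus-low Tfh the Cish difference was -4.11 ± 0.71 (n = 3 and 3, adjusted p = 0.0510), just short of the threshold, and at least 6.57-fold. It passed with the replicate number as a block, which pairs these groups (adjusted p = 0.0379), and with the set term (adjusted p = 0.00539), and in 7 of 22 alternatives in all, with adjusted p from 0.000969 to 0.686. Within sets 1, 2 and 3 it was -3.00, -5.63 and -3.70. Venus-low minus PD1-intermediate was -0.58 ± 0.79 (adjusted p = 0.724). PD1-intermediate minus PD1-low was -2.00 ± 0.87 (adjusted p = 0.509), and -2.66 ± 0.64 (adjusted p = 0.0480) with the set term, with -2.76 within set 3. PD1-low minus naive was 1.18 ± 0.87 (adjusted p = 0.978).

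Il7r and Cish are the 2 member genes called lower in Venus-high Tfh than in naive cells in the fit without the set term. Part of their promoters is shown because STAT5 binds a palindrome written TTCNNNGAA. The sequences come from RefSeq (GRCm38.p6), each 5′ to 3′ on the gene's strand, with each match in capitals. The Cish stretch, chr9:107296559-107296678 on the plus strand, holds 100 bases before the annotated start and the first 20 of the transcript. The Il7r stretch, chr15:9529957-9530076 on the minus strand, ends upstream of the annotated transcript start.
Cish: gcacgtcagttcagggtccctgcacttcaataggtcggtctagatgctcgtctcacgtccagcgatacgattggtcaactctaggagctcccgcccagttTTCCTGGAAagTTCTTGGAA
Il7r: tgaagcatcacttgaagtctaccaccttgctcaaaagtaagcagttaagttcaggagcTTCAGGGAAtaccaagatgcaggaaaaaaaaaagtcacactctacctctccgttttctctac
The matches begin at bases 1 and 12 counted from the annotated start in Cish, and at base -142 in Il7r. For Il7r the count runs from the transcript start of the window chr15:9529827-9530126. That start lies inside the gene range given above and not at its end, 9529941. The motif is its own reverse complement, so a search of 1 strand covers both, and overlapping matches would each have counted. Windows of 250 bases before to 50 after the start were given for 7 of the 9 genes, all but Il2rb and Socs2, as 9 windows. The motif was found in 2 of the 9 windows, those of Cish and Il7r. The window of Il2ra, which was called lower than in naive cells with the set term only, held no match. Of all 32851 windows of that length in the mouse table, 2726 (8.3%) held at least 1 match and 150 (0.457%) at least 2, as Cish did. A match is a run of letters and not a measured binding site.

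Socs2, on chromosome 10 (95383903 to 95417321), encodes a feedback inhibitor best known for restraining growth hormone signalling. It has 6 probe sets, of which 3 passed the filter. The strongest, 1418507_s_at, read 2.67, 3.36 and 2.23 log2 in Venus-high Tfh, 2.83, 5.95 and 5.60 in Venus-low Tfh, 5.77 and 6.93 in PD1-intermediate Th, 8.73 and 11.72 in PD1-low Th, and 5.37 and 5.49 in naive cells. PD1-low was above all other arrays, Venus-high was below 5 throughout, and Venus-low replicate 1 read with the Venus-high arrays. No Socs2 difference on this probe set passed the test. PD1-intermediate minus PD1-low was -3.88 ± 1.19 (SE, n = 2 and 2, adjusted p = 0.206; with the set term 0.0837), and PD1-low minus naive was 4.80 ± 1.19 (adjusted p = 0.519; with the set term 0.249). Venus-high minus naive was -2.68 ± 1.08 (n = 3 and 2, adjusted p = 0.216), and Venus-high minus Venus-low was -2.04 ± 0.97 (adjusted p = 0.782).

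The other tested Socs2 probe sets and the Socs1 probe set went with the array set more than with the group. Socs1 (1450446_a_at), on chromosome 16 (10783808 to 10785536), encodes the strongest inhibitor of Janus kinases in the family. It read 1.91, 6.54 and 1.96 in Venus-high Tfh, 1.92, 5.84 and 1.95 in Venus-low Tfh, 1.96 and 1.96 in PD1-intermediate Th, 7.40 and 1.96 in PD1-low Th, and 1.92 and 6.63 in naive cells. It exceeded 5 on the 4 arrays of set 2 and on no other array, so its level in these groups is not settled. Within set 2 the Venus-high minus Venus-low difference was 0.70 and PD1-low minus naive 0.77, each from 1 array a group, and no Socs1 difference was called in either fit.

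Socs2 probe set 1449109_at read 5.56, 2.07 and 3.55 in Venus-high, 5.31, 2.08 and 3.55 in Venus-low, 3.53 and 4.57 in PD1-intermediate, 2.08 and 9.09 in PD1-low, and 5.56 and 2.08 in naive cells. It was displaced downward in set 2, and its highest value was PD1-low replicate 2, the array that was also highest on 1418507_s_at. Probe set 1438470_at read 2.23, 4.32 and 2.18 in Venus-high, 2.23, 5.01 and 2.17 in Venus-low, 2.16 and 2.18 in PD1-intermediate, 7.93 and 3.87 in PD1-low, and 2.23 and 5.14 in naive cells. Set 2 was higher there by 2.76 than set 1 and by 3.04 than set 3. With the set term its PD1-intermediate minus PD1-low difference was -2.21 ± 0.42 (adjusted p = 0.0219), and it was not called without the term (-3.73 ± 1.58, adjusted p = 0.484). In set 3, the only set that held both groups, all their values lay below 5, so no fold is given. The untested Socs2 probe sets 1441476_at, 1442586_at and 1446085_at read below 5 on all arrays but PD1-low replicate 2, where 1442586_at reached 5.30.

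**Figure D2:**
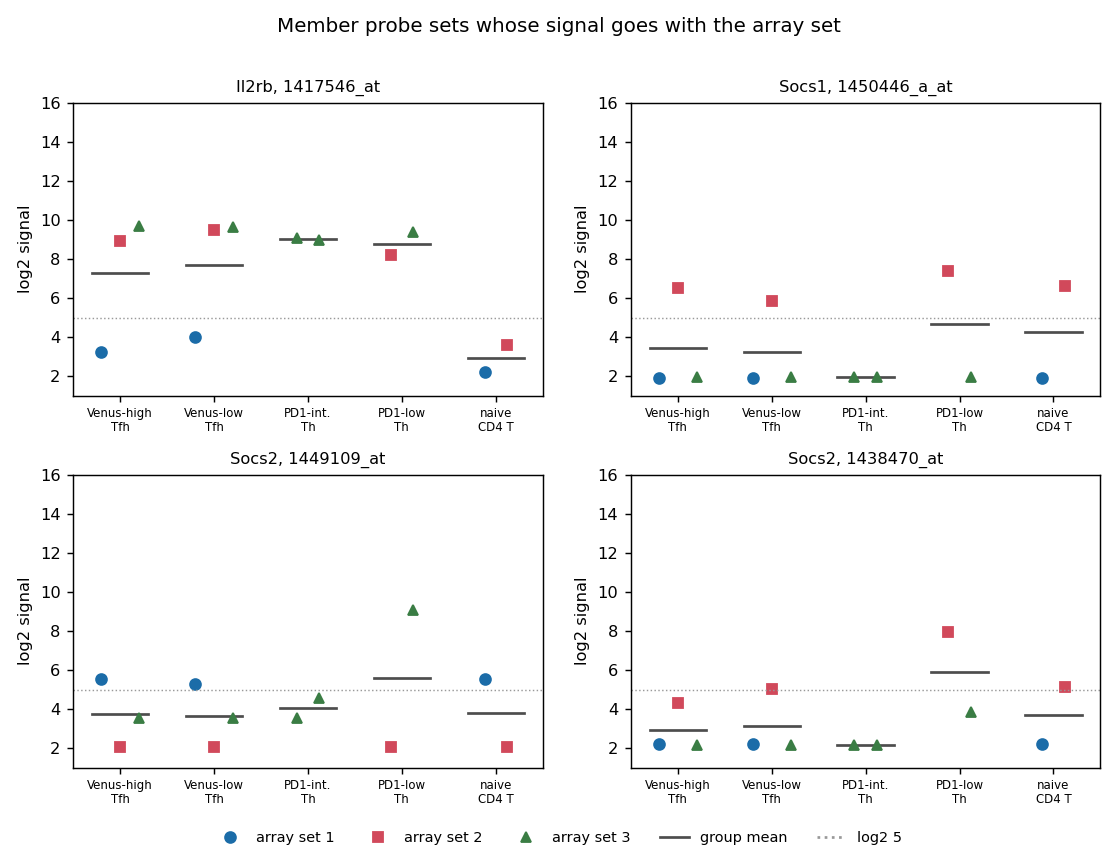
Log2 signal by array for the Il2rb, Socs1 and Socs2 probe sets whose level goes with the array set, drawn as the group means and the 12 arrays, with the marker giving the set. Socs1 is above 5 on the 4 arrays of set 2 alone, and Il2rb 1417546_at is low on the set 1 arrays of both Tfh groups (3.24 and 4.00) where the other Tfh arrays read 8.94 to 9.70.

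**Figure D3:**
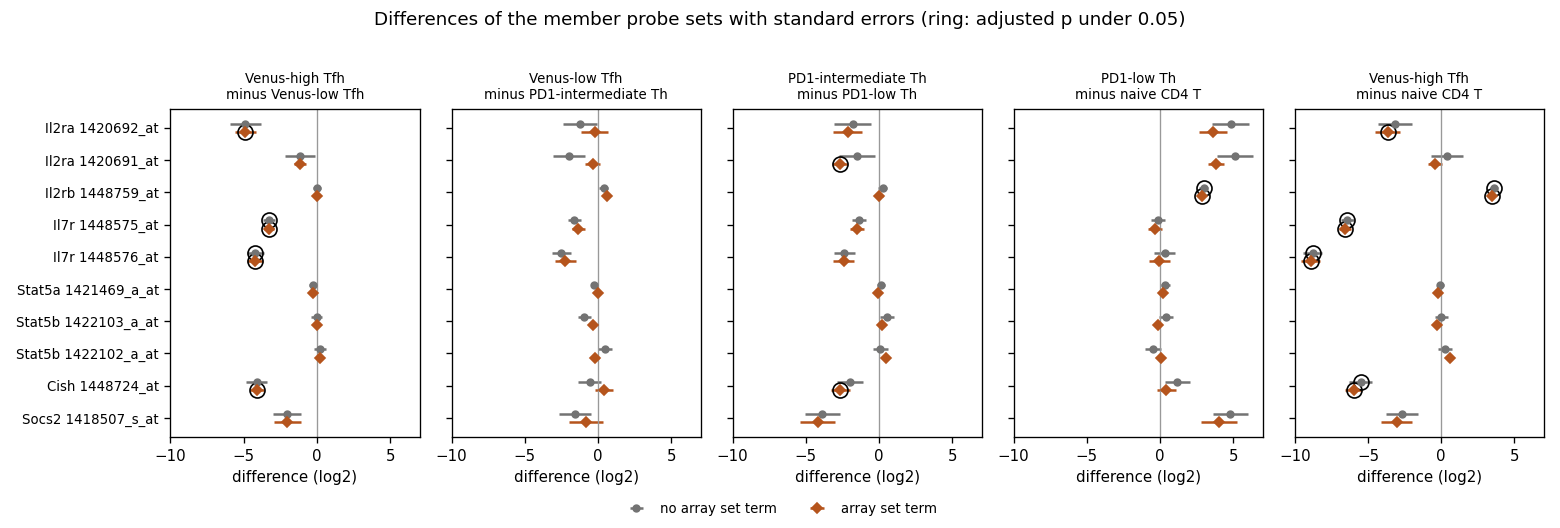
Differences of 10 member probe sets in each of the 5 comparisons on the log2 scale, with bars of 1 SE, grey circles for the fit without and brown diamonds for the fit with the array set term, and a ring where the adjusted p is under 0.05. In both fits, rings lie on Il7r for Venus-high against Venus-low and naive cells, on Il2rb for PD1-low and Venus-high against naive cells, and on Cish for Venus-high against naive cells. With the set term only, they also lie on Il2ra, and on Cish for Venus-high against Venus-low and PD1-intermediate against PD1-low. No STAT5 probe set has a ring.

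Among other genes of the pathway, 57 were tested in 6 lists, each by its probe set of highest mean. The lists were written for this pathway with earlier results of these data known. In the fit without the set term 1 rose and 2 fell in Venus-high relative to Venus-low Tfh, while 5 were called higher and 7 lower with the term. In Venus-high relative to naive cells 12 rose and 8 fell, against 18 higher and 20 lower with the term, so the larger number was of rises without it and of falls with it. In PD1-intermediate relative to PD1-low Th 6 rose and 1 fell, and with the term 9 were higher and 4 lower. In Venus-low relative to PD1-intermediate limma called 0, with 10 at an unadjusted p under 0.05, and 3 higher with the set term. In PD1-low relative to naive cells it called 0, with 6 at an unadjusted p under 0.05, and 2 higher with the set term. These counts are per gene, while the shares given above are over probe sets, so they are a background in another unit. In a fit of 1 probe set a gene without the set term, 130 of 9893 were called between Venus-high and Venus-low Tfh.

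Of the ligands, 3 of 7 were tested, Il2, Il4 and Il21. Il2 itself read 2.42, 2.23 and 2.39 log2 in Venus-high Tfh, 2.42, 5.25 and 4.999 in Venus-low Tfh, 6.75 and 6.89 in PD1-intermediate Th, 2.23 and 3.06 in PD1-low Th, and 2.42 and 2.24 in naive cells. It was above 6 in PD1-intermediate cells only, passed 5 on 1 Venus-low array and stayed below 5 on all others. Relative to PD1-low Th, Il2 rose in PD1-intermediate Th by 4.17 ± 0.82 (SE, n = 2 and 2, limma adjusted p = 0.0356), Il4 by 4.51 ± 0.82 (adjusted p = 0.0270) and Il21 by 8.80 ± 0.71 (adjusted p = 0.000434). Il4 and Il21, the cytokines that Tfh cells give to B cells, also rose in Venus-high Tfh relative to naive cells, by 9.29 ± 0.75 (adjusted p = 0.000125) and 9.11 ± 0.65 (adjusted p = 6.2e-05). All PD1-low and naive values of these 3 genes were below 5, so the fitted differences are not folds. Relative to PD1-low Th the bounds were at least 3.53-fold for Il2, 3.08-fold for Il4 and 80.9-fold for Il21, and relative to naive cells at least 112-fold for Il4 and 100.3-fold for Il21.

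Of the other receptor chains of the common gamma chain and TSLP family, 5 of 6 were tested. Il4ra, the chain that binds IL-4, read 7.36, 7.78 and 8.54 in Venus-high Tfh, 8.67, 9.16 and 9.07 in Venus-low Tfh, 10.07 and 10.30 in PD1-intermediate Th, 12.36 and 12.14 in PD1-low Th, and 12.16 and 12.25 in naive cells. As with Il7r, no overlap was seen between the first 4 groups in this order. Il4ra fell by 4.31 ± 0.35 in Venus-high relative to naive cells (adjusted p = 0.000127), and it fell by 2.07 ± 0.38 in PD1-intermediate relative to PD1-low Th (adjusted p = 0.0289). Its Venus-high minus Venus-low difference was -1.08 ± 0.31 (adjusted p = 0.280) and was called with the set term only (adjusted p = 0.0247). Il13ra1, a chain of the IL-13 receptor, ran the other way. It read 7.82, 8.42 and 10.15 in Venus-high Tfh and below 5 on every other array, and it rose there by 5.50 ± 0.77 relative to Venus-low Tfh (adjusted p = 0.0237) and by 6.33 ± 0.86 relative to naive cells (adjusted p = 0.00193). Against level 5 it was at least 13.9-fold higher in Venus-high than in either of these groups.

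Of 8 Janus kinase and other STAT genes tested, limma called 1 without the set term in the 5 comparisons, Jak2, which rose in Venus-high relative to naive cells by 1.44 ± 0.24 (adjusted p = 0.00569). Of 11 other SOCS, PIAS and phosphatase genes, 2 rose in Venus-high relative to naive cells and 1 in PD1-intermediate relative to PD1-low Th. Ptpn11, which encodes the phosphatase SHP2, rose in both, by 2.48 ± 0.20 (adjusted p = 0.000128) and by 1.63 ± 0.22 (adjusted p = 0.00641), and Ptpn1 rose in Venus-high relative to naive cells by 1.78 ± 0.33 (adjusted p = 0.00978). With the set term 4 of the kinase and STAT genes were higher and 1 lower (Jak1) in Venus-high relative to naive cells. Of the SOCS, PIAS and phosphatase genes 4 were then higher and 3 lower (Socs4, Ptpn2 and Pias1).

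Of 21 other reported STAT5 targets tested, 4 rose and 4 fell in Venus-high relative to naive cells, with a median difference of 0.01, and with the set term 4 were higher and 8 lower. The list does not record whether STAT5 raises or lowers each gene, so these counts and the median do not measure STAT5 activity. Nfil3 rose by 7.41 ± 0.52 (adjusted p = 6.1e-05) and Cdkn1a by 6.35 ± 0.81 (adjusted p = 0.00144). Both were below 5 on the naive arrays, which makes the bounds at least 64.5-fold for Nfil3 and 19.8-fold for Cdkn1a. Ikzf4 fell by 4.43 ± 1.06 (adjusted p = 0.0332), at least 7.34-fold since its Venus-high arrays were below 5, and Foxp3 fell by 3.18 ± 0.53 (adjusted p = 0.00554). Bcl6 and Tnfrsf4 were also called higher there, and Osm and Ccnd3 lower. Foxp3, the defining transcription factor of regulatory T cells, was the list member called between the Tfh groups without the set term and fell by 5.003 ± 0.47 in Venus-high relative to Venus-low (adjusted p = 0.00368). With the term 3 of the list were higher and 3 lower in that comparison. In PD1-intermediate relative to PD1-low Th, Nfil3 rose by 3.20 ± 0.57 (adjusted p = 0.0250; at least 5.14-fold) and Bcl6, the transcription factor of Tfh cells, by 1.66 ± 0.27 (adjusted p = 0.0177).

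Of 9 tested genes of the FOXO1 axis and regulators of Il7r, 1 fell in Venus-high relative to Venus-low Tfh, and 2 rose and 3 fell relative to naive cells. With the set term 3 were lower relative to Venus-low Tfh, and 2 were higher and 6 lower relative to naive cells. Ccr7, the chemokine receptor of the T cell zone, fell by 5.24 ± 0.42 (adjusted p = 0.00315) relative to Venus-low cells and fell by 9.58 ± 0.47 (adjusted p = 1e-05) relative to naive cells. S1pr1, the receptor for exit from lymph nodes, fell by 6.61 ± 0.67 relative to naive cells (adjusted p = 0.000405). Klf2, the transcription factor that drives S1pr1, fell by 6.17 ± 0.83 relative to naive cells (adjusted p = 0.00182). These 3 genes were below 5 on every Venus-high array. The bounds relative to naive cells were at least 312-fold for Ccr7, 17.2-fold for S1pr1 and 39.6-fold for Klf2, and relative to Venus-low Tfh at least 15.4-fold for Ccr7. Relative to Venus-low Tfh, Klf2 (-3.21) and S1pr1 (-2.85) were called with the set term only, at adjusted p of 0.0275 and 0.00561. Relative to naive cells, Gfi1, a repressor of Il7r, rose in Venus-high Tfh by 2.10 ± 0.44 (adjusted p = 0.0176) and Runx1 by 1.10 ± 0.26 (adjusted p = 0.0321). Foxo1 itself differed between Venus-high and naive cells by -0.79 ± 0.27 (adjusted p = 0.130), and with the set term by -0.87 ± 0.14 (adjusted p = 0.00344).

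The genes most like each of 3 members were ranked by Pearson's r of the log2 signal over the 12 arrays, which share groups, array sets and pools of mice, so the values describe these arrays. Most like Il7r (1448575_at) were Ccr7 (r = 0.993), Rtn4rl1 (0.986), Padi2 (0.984), Tuba4a (0.974) and Klf2 (0.974). Most like Il2ra (1420692_at) were Ikzf4 (0.963), Acsbg1 (0.957), Lsp1 (0.934), Capn2 (0.928) and Cyba (0.916). Most like Cish were Gpr83 (0.969), Tuba4a (0.964), Crybg1 (0.959), Abcg3 (0.958) and Pdlim1 (0.954). Ikzf4 and Gpr83 are genes of the regulatory T cell list below, and Ccr7 and Klf2 are in the FOXO1 list.

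Regulatory T cells carry much CD25. Of the genes that mark them, Foxp3, Ikzf4 and Gpr83 were lowest in Venus-high Tfh, as were Il2ra (1420692_at) and Cish. The other measured genes of the list, Ikzf2, Nrp1, Ctla4, Izumo1r and Tnfrsf18, were higher in Venus-high than in naive cells. Foxp3 read 6.19, 5.73 and 6.07 log2 in Venus-high Tfh, 11.16, 10.71 and 11.13 in Venus-low Tfh, 11.05 and 11.34 in PD1-intermediate Th, 11.52 and 12.34 in PD1-low Th, and 10.14 and 8.22 in naive cells. It was above 8 on every array outside Venus-high. Ikzf4 read 2.25, 3.61 and 4.47 in Venus-high, 6.46, 9.25 and 9.65 in Venus-low, 8.56 and 9.37 in PD1-intermediate, 9.76 and 11.48 in PD1-low, and 7.25 and 8.50 in naive cells. Venus-low replicate 1, the Venus-low array of set 1, was the lowest of its group on Ikzf4 and Il2ra (1420692_at). On Foxp3 the same array was the highest of its group.

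Gpr83 read 4.84, 3.10 and 5.27 in Venus-high, 8.08, 8.40 and 8.68 in Venus-low, 9.47 and 10.51 in PD1-intermediate, 11.91 and 12.91 in PD1-low, and 10.65 and 10.46 in naive cells. The whole list did not follow Il2ra. Of its 9 genes 8 had a probe set, 6 of the 8 were at or above 5 on every Venus-high array and 8 on every array of each other group. The summed list signal was 15.24 to 15.92 log2 in Venus-high, 15.30 to 15.98 in Venus-low, 15.70 to 15.78 in PD1-intermediate, 14.93 to 16.06 in PD1-low and 13.62 to 13.75 in naive cells. Ikzf2, which activated T cells also express, reached 12.83, 13.51 and 13.79 in Venus-high against 9.01 and 9.16 in naive cells. Nrp1 read 12.98, 13.25 and 13.82 in Venus-high against 8.34 and 7.95 in naive cells, and Ctla4 11.34, 11.65 and 12.85 against 7.66 and 5.28. Izumo1r read 13.69, 14.09 and 14.07 against 11.53 and 12.60, and Tnfrsf18 12.87, 12.66 and 13.06 against 12.48 and 12.18. The part of regulatory T cells in the Il2ra, Cish and Il7r differences was not tested.

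**Figure D4:**
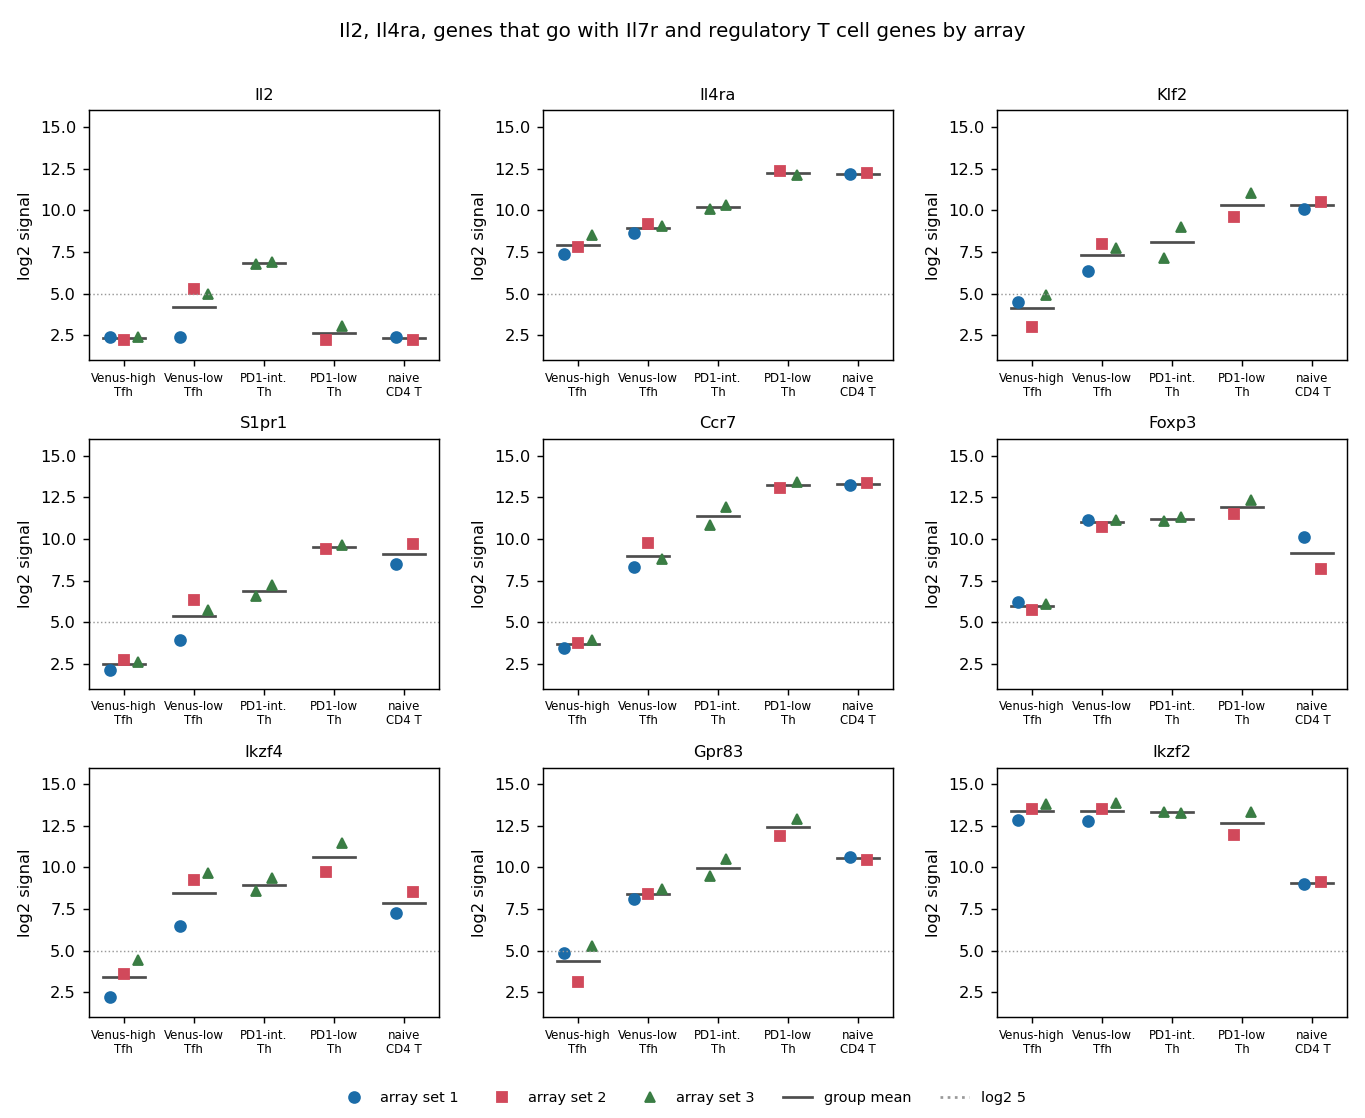
Log2 signal by array of Il2, Il4ra, 3 genes of the FOXO1 axis (Klf2, S1pr1, Ccr7) and 4 genes of the regulatory T cell list (Foxp3, Ikzf4, Gpr83, Ikzf2), with group means as lines and the array set as marker. Il2 exceeds 6 on the 2 PD1-intermediate arrays alone, Il4ra, Klf2, S1pr1 and Ccr7 have their lowest group mean in Venus-high Tfh, and Foxp3 is at 5.73 to 6.19 on the 3 Venus-high arrays and above 8 elsewhere.

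The labelled cell type was checked by marker genes. All 7 measured genes of a CD4 T cell list were above 5 on every array, with a summed signal of 16.72 to 17.13 log2. The B cell genes Cd79a, Ms4a1 and Blnk were below 5 on all 12 arrays, while Cd22 read 12.14 to 13.01 in Venus-high, 10.60 to 12.28 in Venus-low, 10.13 and 9.32 in PD1-intermediate, 3.77 and 4.19 in PD1-low, and 2.39 and 3.18 in naive cells. Cd79b ran otherwise, at 2.50 to 3.99 in Venus-high, 2.61 to 6.64 in Venus-low, 6.65 and 6.68 in PD1-intermediate, 5.83 and 8.99 in PD1-low, and 2.61 and 2.81 in naive cells. Its highest array, PD1-low replicate 2, was also the highest for Il2ra (1420692_at), Cish and Socs2 (1418507_s_at). That array was the highest for Foxp3, Ikzf4, Gpr83, Klf2 and Ccr7 as well. On it Cd79a, Ms4a1 and Blnk read 2.13, 2.33 and 1.99. Pax5 exceeded 5 on the 4 arrays of set 2 alone. The summed signal of the 6 measured B cell genes was 12.16 to 13.01 in Venus-high, 10.72 to 12.29 in Venus-low, 9.58 to 10.27 in PD1-intermediate, 7.11 to 9.09 in PD1-low and 4.98 to 6.37 in naive cells. Of 7 myeloid genes 6 were below 5 on every array, the exception being Cd68, at 8.83 to 9.26 in Venus-high, 8.08 to 8.79 in Venus-low, 6.82 and 6.21 in PD1-intermediate, 5.72 and 4.66 in PD1-low, and 3.89 and 4.06 in naive cells. The summed signal of all 7 was 8.91 to 9.32 in Venus-high and 5.42 to 5.47 in naive cells.

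In the list of CD8, NK and gamma delta T cell genes, Cd8a and Ncr1 were below 5 on all arrays, whereas Klrd1 read 1.99 to 2.74 in Venus-high, 3.66 to 5.93 in Venus-low, 7.56 and 8.94 in PD1-intermediate, 10.80 and 11.50 in PD1-low, and 9.45 and 9.73 in naive cells. Nkg7 read 1.80 to 2.13 in Venus-high, 7.57 to 11.02 in Venus-low, 8.02 and 8.11 in PD1-intermediate, 2.13 and 7.35 in PD1-low, and 2.14 and 2.13 in naive cells. Gzma read 7.06 to 7.72 in Venus-high, 7.95 to 9.77 in Venus-low, 8.24 and 7.32 in PD1-intermediate, 4.69 and 5.19 in PD1-low, and 2.43 and 2.76 in naive cells. Cd8b1 exceeded 5 on both PD1-low arrays (6.35 and 6.62) and on naive replicate 2 (5.15). The summed signal of the 6 measured genes was 7.32 to 7.87 in Venus-high, 10.09 to 11.31 in Venus-low, 9.62 to 9.91 in PD1-intermediate, 10.89 to 11.64 in PD1-low and 9.50 to 9.82 in naive cells, lowest in Venus-high as for Il7r, Il2ra (1420692_at) and Cish. The part of other cells in the differences was not tested.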

How the data were processed

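Gene expression was measured in 12 pools of sorted CD4 T cells on Affymetrix mouse genome arrays, from 20 ng of total RNA amplified per array, per the labels. Each value is a log2 signal of a probe set, which the authors deposited after GCRMA, per the submitters' processing notes, with the version not given in the sources used here. GCRMA adjusts background by probe sequence, which sets dim probe sets near 2 and can widen differences of dim genes. The annotation of the array gave 34958 of 45101 probe sets 1 gene symbol, 932 several and 9211 none. Scanner files and detection calls were not used here, and the number of arrays limits the precision.

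Probe sets with 1 symbol that reached log2 5 on at least 2 arrays (17901) entered 1 fit of the 5 groups in limma 3.58.1 (R 4.3.3), with 7 residual degrees of freedom and no batch term. Tests were 2-sided and moderated, with Benjamini-Hochberg adjustment over all 17901 and an adjusted p under 0.05. Array sets are 3 clusters of the arrays by their quantiles. As a term they left 5 residual degrees of freedom and cut the median SE for Venus-high against Venus-low from 0.47 to 0.17. The median difference over all tested probe sets in the 5 comparisons, in the order Venus-high over Venus-low, Venus-low over PD1-intermediate, PD1-intermediate over PD1-low, PD1-low over naive and Venus-high over naive, was 0.02, -0.44, 0.27, 0.33 and 0.18 without the term and 0.02, -0.01, -0.02, -0.02 and -0.03 with it. In a simulation of the Venus-high against Venus-low comparison, 100 of 17901 probe sets were given a change. Without the set term, 1% of changes of 1 log2 and 44% of changes of 3 log2 were recovered, with 0 false calls. With the term, 50% and 94% were recovered, with 6 false calls at each size. A missing call in the fit without the term therefore does not show that a gene was unchanged. No columns had equal values.

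Replicate numbers of Venus-high and Venus-low arrays came from the labels. The deviations from the group means of same-numbered arrays correlated by 0.937, 0.967 and 0.940, each pair within 1 array set. The main fit had no term for these pairs, so its p-values are not those of a paired test. Only the alternatives with a replicate block or an array set term took them up. The members, pathway lists, marker lists, comparisons and alternatives were chosen with earlier results of these data known. All members were named. Of each pathway list, up to 4 called genes with the largest change in a comparison were taken, and not all are printed. Runx1 and Foxo1, the marker genes other than list members, and the levels of Il4ra and Il13ra1 by array were picked once their values had been seen. Alternatives were the array set as a fixed or a random term, a replicate block, no filter, a floor at log2 5, quantile normalization, 1 probe set a gene, no displaced probe sets, and leaving out each array or array set. Leaving out sets, the random term and a crossed block were chosen after seeing the data. Promoters were read from RefSeq windows. Figures were drawn in matplotlib 3.10.9 (Python 3.11.15).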

Additional observations from a re-analysis of the deposited data

How the results depend on the processing

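Counts over all probe sets and over the 14 member probe sets changed with the treatment of the array sets, and the cause was not tested. In the order Venus-high over Venus-low, Venus-low over PD1-intermediate, PD1-intermediate over PD1-low, PD1-low over naive and Venus-high over naive, 109, 48, 445, 6 and 1704 probe sets were called without a set term. With it as a fixed term the counts were 2080, 546, 1623, 66 and 6132, and as a random block 2405, 1047, 1918, 151 and 6104. Of the members, the fixed term called 4 for Venus-high over Venus-low and 3 for PD1-intermediate over PD1-low, and the random block 4, 0, 5, 2 and 7. After quantile normalization the counts were 358, 113, 718, 21 and 2618, with 4 members called between the Tfh groups. Leaving out displaced probe sets gave 94 for Venus-low over PD1-intermediate and 14 for PD1-low over naive. A floor at log2 5 gave 76 for Venus-low over PD1-intermediate and 1 member for Venus-high over Venus-low, and no filter gave 28 for PD1-low over naive. With the replicate block the counts were 216, 3895, 713, 18 and 2524, with 3 members called for Venus-high over Venus-low (both Il7r and Cish) and 3 for Venus-low over PD1-intermediate (both Il7r and Stat5b). Same-numbered Venus-low and PD1-intermediate arrays lay in different array sets, and their deviations correlated by -0.047 and 0.029. The block therefore does not pair these 2 groups, and no conclusion is drawn from its calls there. Same-numbered naive arrays, each in the array set of its Tfh partners, deviated with Venus-high (0.786 and 0.908) and Venus-low (0.795 and 0.915). Those of PD1-low and naive cells did not (-0.855), and a crossed replicate block for PD1-low over naive called 0 probe sets and 0 members. Without array set 1 the counts were 32, 9, 291, 0 and 928, with 1 member called for Venus-high over Venus-low and 0 for PD1-low over naive. Without array set 2 they were 0, 0, 107, 0 and 593, with 0 members in those 2 comparisons. Leaving out each array in turn gave 21 to 126, 5 to 49, 101 to 424, 0 to 26 and 995 to 1681, with 0 to 4 members for Venus-high over Venus-low and 0 to 1 for PD1-low over naive. Of 561 values of 26 member differences under alternatives, 501 kept their direction and side of the threshold, 27 lost and 32 gained the call, and 1 changed direction, the Il2ra 1420691_at difference of PD1-intermediate over PD1-low, which ran from -3.11 to 0.041 on leaving out each array, the highest value being that without PD1-low replicate 2. Signals below log2 5 have no reliable order, which limits Socs1, Socs2, Il2ra and Cish in the low groups.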
